A study of Gallus gallus with 18 samples.

Results

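The comparison described here is between hens that laid eggs with high and with low shell strength, at the initiation of shell calcification. RNA was sequenced from the uterus of Hy-Line Brown laying hens, a commercial brown-egg layer, at 42 weeks of age. The 6 libraries of the initiation period were chosen by their labels, 3 from the high strength group and 3 from the low strength group, out of 18 libraries in the series. The other 12 libraries come from the same strength groups in the growth and termination periods of calcification, with 3 libraries in each group. The labels name no treatment, genotype or line that sets the strength groups apart, and they do not say which hen each library came from. A group is therefore defined by the strength of the shells its hens laid and by the period.

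The uterus of the hen, also called the shell gland, is where the egg receives its mineral shell. The gland secretes calcium and bicarbonate ions together with matrix proteins into the fluid around the egg. Calcite crystals first form on the outer shell membrane (initiation), then grow into the dense palisade layer (growth), and deposition stops before the egg is laid (termination). The initiation period sets the sites from which the crystals of the shell grow.

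The initiation libraries held between 13322102 and 14781400 counts, so that 3 counts in a library corresponded to 0.166 to 0.22 CPM (counts scaled to library size and composition). The test covered 16110 of 20866 listed loci. Genes carry Ensembl identifiers and no names in the deposited table, and the gene table at hand had 0 rows with an Ensembl identifier. Functions and cell type markers were therefore not assigned, and the tissue label was not checked against marker genes. By a fixed rule 4 genes are named, by identifier. They are the called rise and the called fall with the smallest p, and the rise and the fall with the largest difference in mean CPM, among Ensembl genes whose groups did not overlap.

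At initiation, 465 (58.5%) of the genes called lower in high strength had the low libraries above all other 15, against 5.41% of all loci tested. Among the genes called higher, 162 (33.1%) had the high initiation libraries above all other 15, against 3.14%. The differences of the called genes had medians near 0 in the later periods. In whole tissue, a change in the share of a cell type and a change in RNA per cell cannot be told apart. Of the 16110 loci tested, 489 (3.04%) stood higher in high strength and 795 (4.93%) stood lower (edgeR quasi-likelihood test over all 18 libraries, Benjamini-Hochberg adjusted p below 0.05). Together the calls made up 7.97% of the loci tested. The libraries of both groups did not overlap in 486 of the rises and in all 795 falls, where 16.6% of all loci had the high strength libraries on top without overlap and 19.4% had them below. The falls were also larger at the median than the rises. The median difference was 1.31 on the log2 scale among the 489 rises, a 2.48-fold change, and −1.60 among the 795 falls, a 3.04-fold change, against a median of −0.0016 over all loci tested. More than 4-fold differences were estimated for 305 of the falls (38.4%) and 97 of the rises (19.8%), against 3.71% of all loci tested. More than 16-fold differences were estimated for 106 falls (13.3%) and 5 rises (1.02%), against 0.788%. Large differences are called more readily, so these shares have no test. For the 20 falls with no counts in high initiation the data give only a lower bound on the size. That bound ran from 5.40-fold to 84.8-fold with a median of 12.5-fold, so not all 20 are shown to exceed 16-fold.

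**Figure D1:**
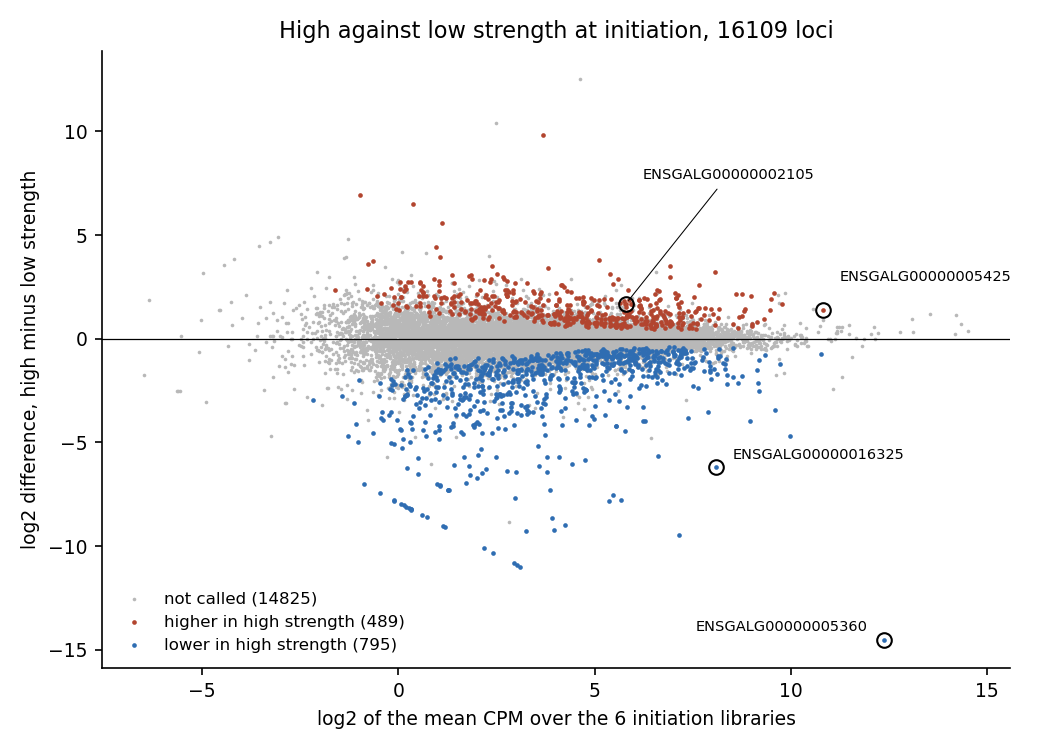
Log2 difference between high and low strength at initiation (vertical axis) against the log2 of the mean CPM over the 6 initiation libraries (horizontal axis), 1 point per locus; the 1 tested locus with no counts in these libraries is not drawn. The 795 falls (blue) reach far below −5, while 5 of the 489 rises (red) lie above 4; the 4 named genes are circled.

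The gene with the smallest p was ENSGALG00000016325, a fall. Its level was 575.6, 498.6 and 545.2 CPM in low initiation replicates 1, 2 and 3, and 8.06, 7.55 and 6.47 CPM in high initiation replicates 1, 2 and 3. The groups were far apart, and the 3 libraries of each group lay close together. The log2 difference was −6.20 ± 0.29 (standard error; edgeR adjusted p = 1.92e-08). In the 12 libraries of growth and termination this gene ranged from 2.69 to 9.18 CPM with a median of 5.53 CPM, so that the high initiation libraries lay inside the range of the later periods and the low initiation libraries far above it. At termination this gene was again lower in high strength, at 2.85, 2.69 and 5.71 CPM in high replicates 1, 2 and 3 against 6.32, 9.18 and 7.30 CPM in low replicates 1, 2 and 3. The termination groups did not overlap, and the log2 difference of −1.02 ± 0.26 was far smaller than at initiation (standard error; edgeR adjusted p = 0.0288).

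ENSGALG00000005360 had the largest difference in mean level of all falls. It reached 12540.1, 10789 and 8758 CPM in low initiation replicates 1, 2 and 3, which was 1.54%, 1.29% and 0.89% of all counts of these libraries. In high initiation replicates 1, 2 and 3 it had 7, 2 and 11 counts. By mean CPM this was the 5th most abundant locus in low initiation and the 15625th in high initiation. The log2 difference was −14.52 ± 0.88 (standard error; edgeR adjusted p = 2.23e-07), and the 12 later libraries ranged from 0.0639 to 2.17 CPM.

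The named rises differed from each other in which initiation group stood apart. ENSGALG00000002105, the rise with the smallest p, stood at 81.2, 84.98 and 89.0 CPM in high initiation replicates 1, 2 and 3, and at 19.9, 24.1 and 35.3 CPM in low initiation replicates 1, 2 and 3. The 12 later libraries ranged from 80.1 to 111 CPM. Here it was the low initiation group that stood apart, below every one of the other 15 libraries, while the high initiation libraries lay within the range of growth and termination. The log2 difference was 1.69 ± 0.19 (standard error; edgeR adjusted p = 7.30e-05).

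ENSGALG00000005425, the rise with the largest difference in mean level, showed the opposite placing. It stood at 2207, 3119 and 2509 CPM in high initiation replicates 1, 2 and 3, and at 868, 1072 and 1073 CPM in low initiation replicates 1, 2 and 3. The low initiation libraries lay within the range of the 12 later libraries, which was 744 to 1202 CPM, and all 3 high initiation libraries lay above it. The log2 difference was 1.38 ± 0.19 (standard error; edgeR adjusted p = 3.62e-04). By mean CPM it was the 22nd most abundant locus in high initiation and the 64th in low initiation.

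**Figure D2:**
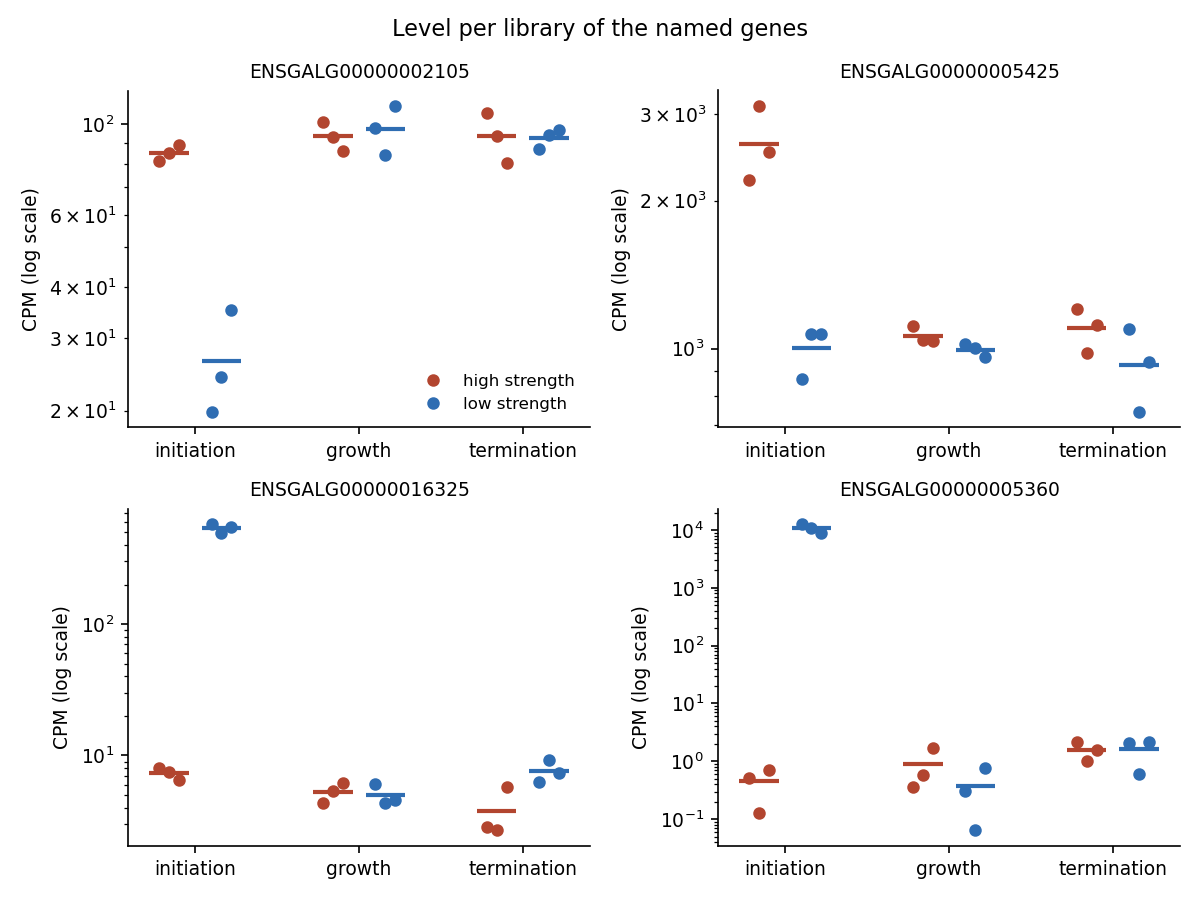
CPM on a log scale of the 4 named genes in all 18 libraries, by period and strength group; points are libraries and bars are group means. In ENSGALG00000016325, ENSGALG00000005360 and ENSGALG00000002105 the low initiation group stands apart from all other groups, and in ENSGALG00000005425 the high initiation group does.

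Over all called genes 4 placings were counted, with either initiation group above or below all other 15 libraries of the series. None of the named genes had high initiation at the bottom. The libraries of the other periods had no part in the difference itself, but they entered the filter and the spread that all comparisons share. Among the 795 falls, the 3 low initiation libraries lay above all other 15 libraries of the series in 465 genes (58.5%), against 5.41% of all loci tested. The 3 high initiation libraries lay below all others in 88 falls (11.1%, against 1.84%). For 8 falls (1.01%) both held, and for 250 (31.4%) neither did. Over all loci tested, taking both directions, these shares were 0.0683% and 87.4%. Groups that differ at initiation are already apart by the choice of the genes, and a small spread in the later libraries also favours a call. These shares therefore have no test. The counts moved with the libraries tested and the tool, with the placing itself always taken over all 18 libraries. Genes called with low initiation on top numbered 301 without low initiation replicate 1 and 840 with limma-voom and library weights, against 465. Genes called with high initiation at the bottom numbered 54 without high initiation replicate 1, 51 without high initiation replicate 3 and 48 without low initiation replicate 1, against 88. That count was 42 in the fit to the 6 initiation libraries with a replicate block (a term for the replicate number). It was 141 without the high termination group, 138 without high termination replicate 3 and 264 with limma-voom.

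Among the 489 rises, the placings were more even. The high initiation libraries lay above all other 15 in 162 genes (33.1%, against 3.14% of all loci tested), and the low initiation libraries lay below all others in 134 (27.4%, against 2.23%). Both held for 3 rises (0.613%) and neither for 196 (40.1%), against 0.0683% and 87.4% of all loci tested, taking both directions. Over all loci tested, low termination most often had the highest of the 6 group means (26.5%). The low initiation mean was the highest in 653 of the 795 falls (82.1%, against 16.2% of all loci tested). The high initiation mean was the highest in 303 of the 489 rises (62.0%, against 15.3%). By the choice of the genes a fall has low above high initiation and a rise the reverse, so these shares have no test. Genes called with high initiation on top numbered 51 and 64 without low initiation replicates 1 and 2, and 103, 94 and 90 without high initiation replicates 1, 2 and 3, against 162. They numbered 276 with DESeq2, 248 in the fit to the 6 initiation libraries, 264 without the high termination group, 260 without high termination replicate 3 and 484 with limma-voom. Genes called with low initiation at the bottom numbered 64 and 75 without low initiation replicates 1 and 2, against 134. That count was 204 without the high termination group, 208 without high termination replicate 3 and 329 with limma-voom.

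The distance from the next group differed between these sets. For the 465 falls with low initiation on top, the low initiation mean was a median of 2.66 times the highest of the other 5 group means, more than 4 times it in 165 genes and more than 10 times it in 88. For the 162 rises with high initiation on top, the median was 1.70 times, with 18 genes over 4 times and 1 over 10 times. The 134 rises with low initiation at the bottom were measured against the lowest of the other 5 group means. That mean was a median of 2.25 times the low initiation mean. For the 88 falls with high initiation at the bottom, the ratio to the high initiation mean had a median of 1.59. The ratio was over 4 in 18 of the 134 rises and 8 of the 88 falls, and over 10 in 2 and 3. The sets were chosen by these same values, and a mean near 0 in the lower group makes a ratio large. The ratios therefore have no test. The 465 genes together held 5.45% of the counts of the low initiation libraries on average, and the 162 genes held 2.11% of those of the high initiation libraries.

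Medians over the whole sets of called genes lay outside the later libraries in both initiation groups, on opposite sides. These medians mix genes with different placings. For the 795 falls, the median level was 4.60, 4.49 and 4.15 log2 CPM in low initiation replicates 1, 2 and 3, and 2.55, 2.62 and 2.61 log2 CPM in high initiation replicates 1, 2 and 3. In the 12 later libraries it lay between 2.85 and 3.10 log2 CPM, below every low initiation library and above every high initiation library. These 795 genes took 9.24%, 8.14% and 6.01% of the counts of low initiation replicates 1, 2 and 3, and between 2.22% and 2.48% of those of the high initiation libraries.

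For the 489 rises, the median was 4.87, 5.04 and 4.94 log2 CPM in high initiation replicates 1, 2 and 3, and 3.49, 3.73 and 3.96 log2 CPM in low initiation replicates 1, 2 and 3. The later libraries lay between 4.20 and 4.43 log2 CPM, again between both initiation groups. The separation of the initiation groups was set by the choice of the genes. That choice also favours a place between them for the other libraries, so nothing is read from this placing in either set. The later libraries entered that choice only through the scaling, the filter and the shared spread.

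**Figure D3:**
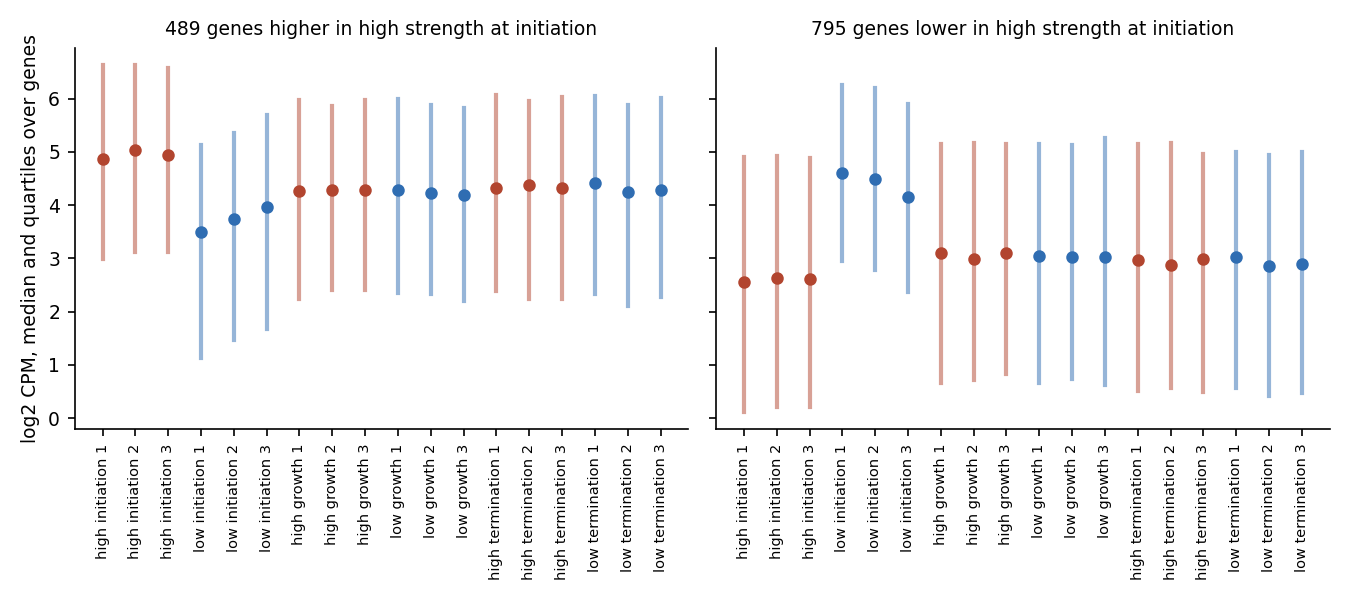
Median (point) and quartiles (bar) of log2 CPM over the 489 rises (left) and the 795 falls (right) in each of the 18 libraries. The 12 growth and termination libraries lie between 4.20 and 4.43 on the left and between 2.85 and 3.10 on the right, with the initiation groups on opposite sides. The choice of the genes favours this placing.

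Some falls were not detected at all in the high initiation libraries. For 20 of the 795 falls, the high initiation libraries held no counts, against 0.168% of all loci tested. All 20 exceeded 1 CPM in low initiation libraries only, so the filter on low counts (above 1 CPM in 3 or more libraries) had already required counts in each of the 3 low initiation libraries. Their means there were 1.08 to 17.04 CPM. Against a floor of 3 counts per library they were at least 5.40-fold to at least 84.8-fold lower in high initiation. Of the 20 loci, 6 had no counts in any library outside low initiation, and 11 are numbered loci without an Ensembl identifier. Among the 489 rises, 1 had no counts in low initiation, against 0.0683% of all loci tested. Setting such loci to their bound left the medians of the rises and the falls at 1.31 and −1.60.

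Calls were found in every range of abundance, and the shares of rises and of falls were lowest under 1 CPM. Of the 1591 loci with a mean of 100 to 1000 CPM at initiation, 81 rose (5.09%) and 95 fell (5.97%). Of the 8100 loci between 10 and 100 CPM, 244 rose (3.01%) and 355 fell (4.38%). Of the 5246 loci between 1 and 10 CPM, 150 rose (2.86%) and 314 fell (5.99%), with a median of 2.34 on the log2 scale for the size of the falls, against 1.15 between 100 and 1000 CPM. Low counts need a larger change to pass the test, which bears on these medians. Of the 59 loci above 1000 CPM, 1 rose and 3 fell. Of the 1114 loci under 1 CPM, 13 rose (1.17%) and 28 fell (2.51%).

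Loci with a number from the authors in place of an Ensembl identifier made up 21.0% of those tested. They held 148 of the 489 rises (30.3%) and 151 of the 795 falls (19.0%). Per locus tested, 4.37% of the numbered loci and 2.68% of the Ensembl genes rose, and 4.46% and 5.06% fell.

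A large difference did not always give a call. Differences of more than 16-fold were estimated for 127 loci, and 16 of these were not called, with high strength above in 9 and low strength above in 7. In 2 of the 16 a single library held over 80% of the counts of the higher group.

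The next question was whether the genes that differed at initiation also differed between the strength groups later. The growth and termination comparisons share no library with that of initiation. They do share with it an estimate of the spread per gene, so a gene with a small spread is called more readily in each. In growth, the 489 rises had a median difference of 0.01 in mean log2 CPM, high minus low, with quartiles of −0.14 and 0.19, against 1.29 at initiation. Of these, 261 (53.4%) were above 0, against 48.1% of all loci tested. The 795 falls had a median of 0.00 in growth, with quartiles of −0.17 and 0.15, against −1.55 at initiation, and 385 (48.4%) were above 0. Among the 1284 genes called at initiation, 0 were called in growth, where 1 of 16110 loci (0.00621%) passed edgeR's test. The spread used in this test includes the high termination libraries. Their median SD was 0.606 log2 CPM per locus, against 0.266 in high growth and 0.213 in low growth. Growth was not tested without them. An unadjusted p below 0.05 in growth was found for 61 of the 1284 (4.75%), against 2.32% of all loci; no other tool was run on this contrast. Of these, 36 were among the rises and 25 among the falls. Of the 489 rises, 27 (5.52%) had an unadjusted p below 0.05 and were higher in high strength in growth too, against 1.25% of all loci. Of the 795 falls, 9 (1.13%) had an unadjusted p below 0.05 and were lower in growth too, against 1.07%. In the other direction, 9 rises (1.84%) were lower in growth, against 1.07% of all loci, and 16 falls (2.01%) were higher, against 1.25%. The rises thus leaned to the same direction as at initiation and the falls to the opposite one. No test was made of these shares, and the spread is shared. They are therefore no independent support that the difference carried over.

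At termination the medians were likewise near 0, at 0.01 for the rises and 0.00 for the falls, but with a wider spread. The quartiles were −0.36 and 0.38 for the rises and −0.33 and 0.40 for the falls, against −0.56 and 0.57 over all loci. The high termination libraries did not lie together (replicate 3 stood apart from replicates 1 and 2). Without high termination replicate 3 the medians were −0.03 and 0.02. At termination 14.2% of all loci were called, 12.2% higher and 1.92% lower in high strength. Of the 489 rises, 26 (5.32%) were called higher and 13 (2.66%) lower there. Of the 795 falls, 52 (6.54%) were called higher and 24 (3.02%) lower. Both sets thus held fewer higher calls and more lower calls than all loci, with no test of these shares.

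**Figure D4:**
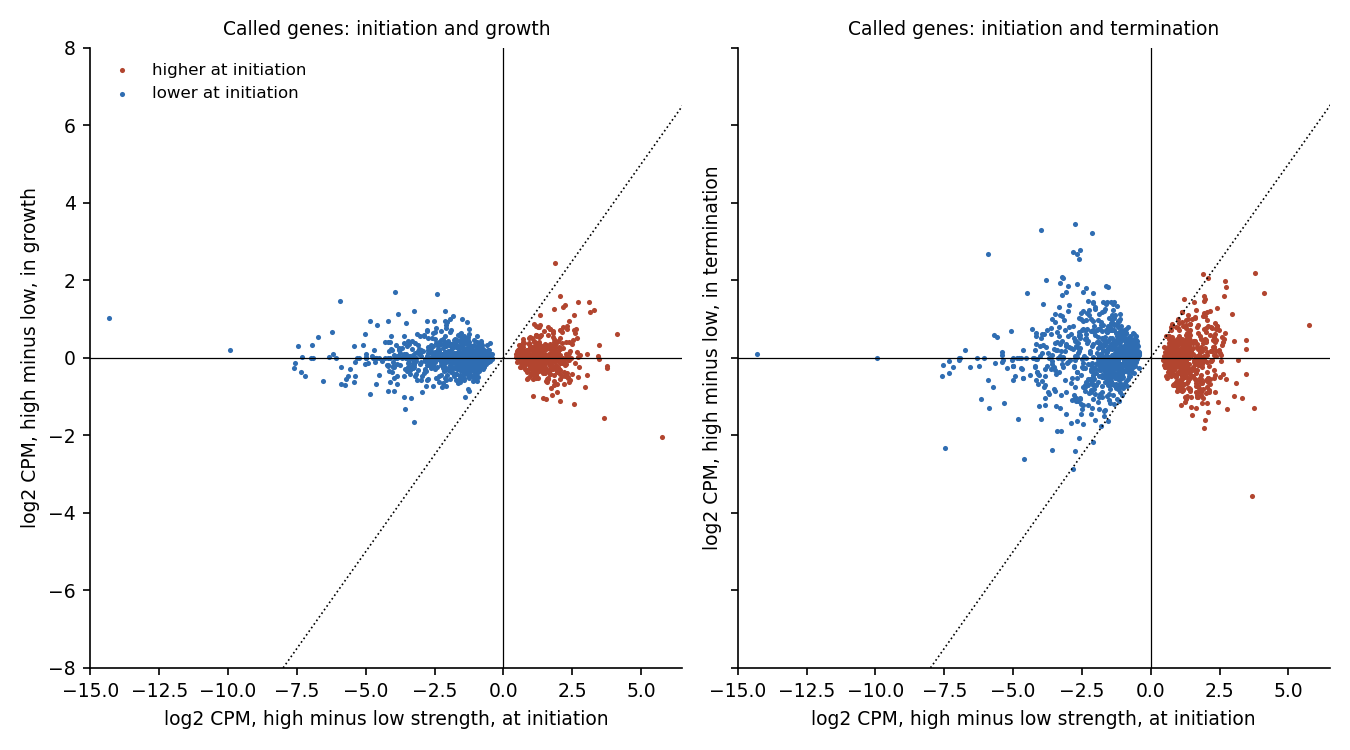
Difference in mean log2 CPM between high and low strength in growth (left) and at termination (right) against that at initiation, for the 489 rises (red) and 795 falls (blue) at initiation; the dotted line marks equal differences. The medians lie between 0.00 and 0.01 in both later periods. The spread is wider at termination, with quartiles of −0.36 and 0.38 for the rises and −0.33 and 0.40 for the falls.

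The change of the strength difference with the period was tested directly. The difference at initiation departed from that in growth for 307 loci (1.91%) and from that at termination for 2446 (15.2%) in edgeR's quasi-likelihood test. Of the initiation rises, 82 departed from growth and 240 from termination, and of the falls 219 and 474. These tests share the initiation libraries with the choice of the genes, so nothing is read from the shares. All 4 named genes passed both, and since they were chosen on the initiation contrast their p-values here are a description. For ENSGALG00000016325 the difference at initiation minus that in growth was −6.29 ± 0.37 on the log2 scale (standard error; edgeR adjusted p = 4.36e-07). For ENSGALG00000005425 it was 1.28 ± 0.26 (standard error; edgeR adjusted p = 0.0218). A missed call in growth does not show that the remaining genes did not differ there.

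The initiation libraries differed in their position on a scale between low strength termination and low strength growth. The scale was laid through the 8878 loci called between low strength growth and low strength termination. It had 0 at the mean of the low termination libraries and 1 at the mean of the low growth libraries. High initiation replicates 1, 2 and 3 stood at 0.238, 0.419 and 0.359. Low initiation replicates 1 and 2 stood higher, at 0.570 and 0.534, and replicate 3 at 0.195, below every high initiation library. The strength groups at initiation thus overlapped on this scale, and the low initiation libraries covered a wider range than the high initiation libraries. High termination replicates 1, 2 and 3 stood at 0.834, 0.917 and −0.0541, and the same low termination replicates at 0.208, −0.145 and −0.0628. The scale thus does not order the periods in every library. It leaves out differences in other directions, so it does not measure how near 2 libraries lie.

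**Figure D5:**
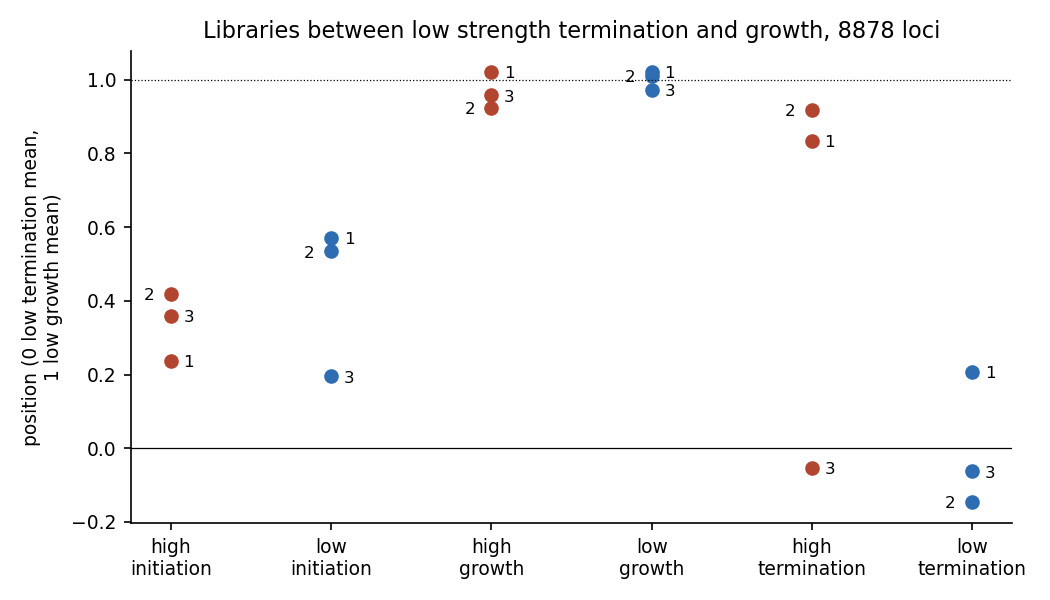
Position of each of the 18 libraries (numbers give the replicate) on a scale from the mean of low strength termination (0) to the mean of low strength growth (1), over 8878 loci called between these groups. Low initiation replicate 3, at 0.195, lies below the 3 high initiation libraries, and replicates 1 and 2, at 0.570 and 0.534, lie above them.

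Most of the called genes did not pass the test between low growth and low termination. Of the 489 rises, 84 (17.2%) were higher and 111 (22.7%) lower in low growth than in low termination, where 27.9% and 27.3% of all loci tested were. Of the 795 falls, 190 (23.9%) were higher and 128 (16.1%) lower. These comparisons share no library with the initiation contrast, but they share its estimate of the spread per gene. No test was made of these shares.

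Low initiation replicate 3 lay nearer to the high strength group than replicates 1 and 2. Across all loci tested, pairs of low initiation libraries correlated at Pearson's r between 0.946 and 0.990, pairs of high initiation libraries between 0.959 and 0.983, and pairs of 1 library from each group between 0.893 and 0.942. These correlations are across genes, which are not independent replicates. Of the 3 low initiation libraries, replicate 3 was the nearest to the high initiation mean in 597 of the 795 falls and 358 of the 489 rises. On the way from the high initiation mean to the mean of low initiation replicates 1 and 2, it stood at a median of 0.829 for the falls and 0.719 for the rises. Without it the test called 1327 loci, and 1092 of the 1284 calls were among these.

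Library composition and read quality also varied among these libraries. The scaling factors of low initiation replicates 1, 2 and 3 were 1.23, 1.19 and 1.02, and those of the high initiation libraries 1.02 to 1.13. The 10 most abundant loci took 9.53%, 10.7% and 16.5% of the counts of low initiation replicates 1, 2 and 3, and 16.5% to 17.6% of those of the high initiation libraries. In the first mate, 94.7% ± 0.445 of the bases of the low initiation libraries reached quality 30, against 91.6% ± 0.0503 in high initiation (SD, n = 3; p = 0.1 in an exact permutation test on both sides, which cannot go lower with 3 libraries against 3). In the second mate the groups overlapped, with 89.5%, 81.0% and 80.8% in the low and 82.5%, 81.9% and 83.0% in the high initiation libraries. The labels name no batch, and the part of read quality or composition in the differences was not tested.

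A smaller set of calls stood without each initiation library in turn. Leaving out a high initiation library gave 694 to 815 called loci. Leaving out low initiation replicate 1 gave 552, leaving out replicate 2 gave 663, and leaving out replicate 3 gave the 1327 above. In all 6 of these fits 511 of the 1284 loci were called in the same direction, 377 of the falls (47.4%) and 134 of the rises (27.4%). Their median differences were −2.27 for the falls and 1.61 for the rises. In 282 of the 377 falls the low initiation libraries lay above the other 15 of the series, against 5.41% of all loci tested. These falls were kept for a clear difference in the same libraries, so nothing is read from this count. The high termination libraries, with a median SD of 0.606 log2 CPM per locus against 0.213 to 0.333 in the other groups, also enter the spread that all comparisons share. Without that group the test called 2423 loci, 993 of them higher, and all 1284 calls were among these.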

How the data were processed

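The authors deposited gene counts for every library and read statistics, with reads before and after filtering (counts) and, as a percent, the bases at quality 30 and the GC content. Bowtie2, TopHat, TopHat2 and the build galGal4 are named in the submitters' processing notes. How reads were counted, whether by strand, and with which annotation is not given in the sources used here. Genes that overlap, run antisense to each other or have close copies may thus share reads. The deposited gene table carries the word normalized in its name. Its values are whole numbers without gaps whose sums differ between libraries, and they were taken as counts; a rounded scaling by factors near 1 would escape this check.

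Libraries were grouped by the labels' strength group and period. The labels tie no library to one hen, so p-values reflect the spread between these samples, which may be technical. Initiation libraries of a group differed beyond counting noise (chi-square per degree of freedom 8.60 to 102). Loci above 1 CPM in 3 or more libraries were kept and scaled with trimmed mean of M values (TMM) factors. The quasi-likelihood test of edgeR 4.0.16 (with limma 3.58.1 in R 4.3.3) was run two-sided on a model with 6 group means, with Benjamini-Hochberg adjustment over all loci tested. Standard errors are the log2 difference over the root of F. For median levels and positions, CPM was put on the log2 scale after adding a prior count of 2. Floors of 3 counts cover counting error only. Alternatives were DESeq2 1.42.0, limma-voom with library weights, other scalings, no filter, a replicate block, fewer libraries and each library left out. Tables and exact tests used Python 3.11.15 with pandas 2.3.3 and scipy 1.17.1.

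The contrast, the rule for naming genes and the lists were chosen with earlier results of these data known. The rule took 4 Ensembl genes without overlap between groups whose higher group averaged 1 CPM or more. The 7 gene lists and 10 marker lists by symbol could not be matched to identifiers and were not tested.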

Additional observations from a re-analysis of the deposited data

Results flagged for a closer look

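The strength difference at initiation departed from that of a later period in all 4 named genes (edgeR quasi-likelihood test of the difference, Benjamini-Hochberg adjusted). These genes were chosen on the initiation contrast, and the tests use the same initiation libraries, so the values are a description and no independent support. Against growth the departure was −6.29 on the log2 scale for ENSGALG00000016325 and −15.77 for ENSGALG00000005360, and 1.75 for ENSGALG00000002105 and 1.28 for ENSGALG00000005425. Against termination it was −5.17, −14.47, 1.67 and 1.13 for the same genes in this order, with edgeR adjusted p-values of 2.83e-06, 2.83e-06, 0.00274 and 0.0183. Over all loci, 307 departed from growth and 2446 from termination, and the second count rests on the high termination libraries, which did not lie together.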

How the results depend on the processing

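The 4 named genes kept their direction and their call in 16 of 16 alternatives each. ENSGALG00000016325 ranged from −6.27 to −6.11, ENSGALG00000005360 from −15.03 to −14.07, ENSGALG00000002105 from 1.52 to 1.95 and ENSGALG00000005425 from 1.23 to 1.498 on the log2 scale. The number of loci called moved more. At initiation it was 2076 with DESeq2, 2141 in the fit to the 6 initiation libraries alone, 2423 without the high termination group and 9900 with limma-voom and library weights, against 1284. Without 1 initiation library it ranged from 552 to 1327, and it was 2491 without high termination replicate 3. The weights of limma-voom ran from 0.0482 for high termination replicate 3 to 9.51 for low termination replicate 3. For the departure from growth, against 307, DESeq2 called 794, limma-voom 4860 and the fit without the high termination group 698, and leaving out 1 library gave 126 to 670. For the departure from termination, against 2446, DESeq2 called 3989 and limma-voom 11831, and leaving out 1 library gave 413 to 8491. The cause of these moves was not tested. In each alternative for the initiation contrast, 0 of the 1284 calls had the opposite sign, and 455 were called in all 16. The initiation groups did not overlap in 486 of the rises, in all 795 falls and, by rule, in the named genes. A change of sign in the same libraries was therefore hardly possible, and nothing is read from the kept directions.

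With total-count scaling the initiation test called 1177 loci, 32.0% of them higher, against 38.1% with TMM, and the median of all loci was −0.07. Without the filter it called 1177 as well, and with upper-quartile scaling 1232. The share of higher calls was 25.4% and 27.1% without low initiation replicates 1 and 2, and 49.3% with limma-voom. Genes called with low initiation on top numbered 301 to 424 without 1 initiation library, against 465.

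Deviations from the group means of same-numbered high and low initiation libraries correlated at −0.301, 0.218 and −0.162, so the numbers were not taken to pair these groups. Low initiation and high termination libraries of the same number correlated at 0.544, 0.479 and 0.737. Low initiation and low termination libraries of the same number correlated at 0.545, −0.427 and 0.392. Over all groups such pairs ranged from −0.427 to 0.737, and 11 of 45 were above 0.1. With the replicate block the test called 1262 loci at initiation, 285 for the departure from growth and 1996 for that from termination, and 1010 with the block in the 6 initiation libraries alone. The difference in bases at quality 30, −3.11 percentage points in the first mate, was −1.29 in the second (exact permutation p = 1.0). The share of reads kept by the authors' filter differed the other way, by 0.0201 points (exact permutation p = 1.0). Depth limits statements on loci under the floor of 0.166 to 0.22 CPM.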
